A study of Mus musculus with 15 samples.

Results

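The lysosomal genes described here are 44 of the 16154 genes counted in hematopoietic stem cells (HSC). They are 29 listed genes for hydrolases, lysosomal membrane proteins and the transcription factors TFEB and TFE3, all of which were present among the counted genes, and the 15 genes whose symbol begins with Atp6v0 or Atp6v1. The Atp6v0 and Atp6v1 genes encode subunits of the V-ATPase, of which 6 belong to the membrane-embedded V0 sector and 9 to the cytosolic V1 sector. Only genes kept by the authors' filter on low counts could be members.

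Lysosomes are acidic organelles in which hydrolases break down proteins, glycans, lipids and whole organelles delivered by endocytosis or autophagy. The V-ATPase pumps protons into them: its V1 sector hydrolyses ATP, and its V0 sector carries the protons across the membrane. TFEB and TFE3 bind a short palindromic DNA element near the start of many lysosomal genes and raise their transcription when they are released from the lysosome surface into the nucleus. In HSC, lysosomes take part in clearing mitochondria and in keeping the cells quiescent.

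RNA was sequenced from HSC of female C57BL/6 mice in 3 groups of 5 mice, with 1 library per mouse. The groups were young mice of 6 to 12 weeks, aged mice of 20 to 24 months, and aged mice given the NAD precursor nicotinamide riboside (NR) at 3 mg/ml in their drinking water for 2 months. There was no NR-treated young group. HSC were sorted as Lin- Sca-1+ cKit+ CD150+ CD48- bone marrow cells, between 20000 and 25000 cells went into a library, and the libraries were 3′ biased with a 10 bp unique molecular identifier. Because a bulk library sums over its cells, fewer cells of a type and less RNA per cell cannot be told apart.

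Values are read counts scaled to a common library size (CPM), with sizes from edgeR's TMM method, so that a level is relative to the other genes of its library. The total count was 2122221 to 3631395 in young, 764119 to 13318989 in aged and 2486399 to 3595384 in NR-treated aged libraries. The shallowest library was aged replicate 2 and the deepest aged replicate 3, where 3 counts, the level not told from absence, correspond to 3.93 and 0.225 CPM. This limit covers counting error only. The 10 HSC markers, among them the sort genes Kit, Ly6a and Slamf1 and the transcription factors Mecom and Hlf, were detected in every library. Their summed levels were 1379 to 1749 CPM in young, 1585 to 2005 in aged and 1477 to 1937 in NR-treated aged HSC. In aged against young HSC, 4 of the 10 were higher and none was lower by edgeR at the threshold given below. They were Ly6a (2.31-fold), Procr (2.41-fold), Slamf1 (1.79-fold) and Hoxb5 (1.61-fold). This was 40% of the 10, where 19.3% of all genes passed. With NR, Slamf1 was 1.43-fold lower than in aged HSC (adjusted p = 0.0288 by edgeR), and the other 9 did not pass. Ly6a, Procr and Hoxb5 were higher with NR than in young HSC, and none was lower. Some libraries stood apart. Transcripts of Y-linked genes summed to 99.7 CPM in young replicate 1 and to 105 CPM in young replicate 5, against at most 3.00 CPM in any other library, although the mice were labelled female. Young replicate 3 held the highest summed level of the macrophage and monocyte markers, at 3198 CPM, and of the neutrophil markers, at 5625 CPM. Young replicate 3 was also the highest of the 5 young libraries for 28 of the 44 lysosomal genes, while young replicates 1 and 5 were the lowest for 15 and 13.

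The element read by TFEB and TFE3 was searched for in the promoters, since it is the sequence feature that many of the 44 genes are known to share. RefSeq promoters of GRCm38.p6, from 250 bases before to 50 bases after the start of transcription, were at hand for 36 of the 44. The core CACGTG was present in 13 of these 36 (36.1%), against 1198 of the 10283 other counted genes with a promoter (11.7%) and 7.15% of all 32851 promoters in the table. The longer TCACGTGA, which contains the core, was present in 8 (22.2%), against 2.13% of the other counted genes and 0.974% of all promoters. GTCACGTGAC, which contains both, was present only in Cln3 (2.78%), against 0.778% of the other counted genes and 0.326% of all promoters. All 3 motifs are palindromes, so a match on one strand is a match on the other. A match is a description of the letters and not of binding. The shares of genes count a gene once if any of its promoters holds the motif, whereas the share of all promoters counts promoters. The shares describe genes already known to share the element and were not tested. The windows below show 2 proteases, 2 membrane proteins and 4 V-ATPase subunits, read along the strand of the gene with the core in capitals.
Ctsl: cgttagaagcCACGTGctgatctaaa
Ctsd: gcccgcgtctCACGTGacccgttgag
Cln3: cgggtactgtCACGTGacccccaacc
Mcoln1: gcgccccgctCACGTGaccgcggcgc
Atp6v0b: gcgcgggggtCACGTGgggtcggcgc
Atp6v0d1: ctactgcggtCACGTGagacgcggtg
Atp6v0e: gcgcgccgatCACGTGagcctctgtt
Atp6v1a: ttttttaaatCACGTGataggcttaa
The Ctsl window, at chr13:64370741-64370766, had the core 236 bases upstream of the start site. The core was 98 bases upstream in Ctsd (chr7:142387910-142387935), 121 in Cln3 (chr7:126583342-126583367), 45 in Mcoln1 (chr8:3500464-3500489), 36 in Atp6v0b (chr4:117887350-117887375), 3 in Atp6v0d1 (chr8:105566052-105566077) and 131 in Atp6v1a (chr16:44139375-44139400). In Atp6v0e (chr17:26676389-26676414) it began 3 bases downstream of the start. These distances are to the RefSeq start site, which can lie inside the gene span given below from GENCODE, as it does for Atp6v0e and Ctsl. The core shown for all of these but Ctsl and Atp6v0b was flanked to give TCACGTGA. Ctsd, Cln3, Mcoln1 and Atp6v0b each held a further core, 245, 149, 71 and 18 bases upstream. The remaining holders of the core were Ctsa, Gaa, Gla, Glb1 and Lamp1, and Lamp1 held 4 of them between 15 and 61 bases upstream.

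Aged HSC had higher levels of several cathepsins, of Lamp2, and of V-ATPase subunits than young HSC, and lower levels of Npc1, Atp13a2 and Atp6v0a2. Of the 44 genes, 13 passed an adjusted p of 0.05 between aged and young HSC (edgeR's quasi-likelihood test, Benjamini-Hochberg adjustment over all 16154 genes), of which 10 were higher and 3 lower in aged HSC. This was 29.5% of the 44, where 19.3% of all genes passed, 9.68% higher and 9.63% lower. The median log2 fold change was 0.18 over the 44 and -0.03 over all genes. The 5 aged and 5 young libraries did not overlap for 9 of the 44 (7 higher and 2 lower in aged HSC), where this held for 12.4% of all genes. With library totals in place of TMM, the median of all genes moved to -0.16 and that of the 44 to 0.04, and the 14 genes that passed split into 8 higher and 6 lower. Without young replicates 1 and 5, the libraries high in Y-linked transcripts, the count was 9 (5 higher, 4 lower). The median log2 fold change of the 44 was then 0.07. Of the 4 higher V-ATPase genes, Atp6v0e, Atp6v1c1 and Atp6v1g1 then did not pass. Without young replicate 3 and aged replicate 2 the count was 15 (13 higher, 2 lower), and without aged replicate 3 it was 8 (7 higher, 1 lower).

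HSC from NR-treated aged mice had lower levels of 9 lysosomal genes than HSC from aged mice, and a higher level of Atp13a2. The 10 genes that passed (edgeR, adjusted over all genes) were 22.7% of the 44, where 8.07% of all genes passed, 3.88% higher and 4.18% lower. The median log2 fold change was -0.12 over the 44 and 0.02 over all genes. The libraries of the 2 groups did not overlap for 13 of the 44 (1 higher and 12 lower with NR), where this held for 8.60% of all genes. With library totals the medians were 0.02 over the 44 and 0.16 over all genes, of which 78.4% of the called ones were then higher with NR, and 6 of the 44 passed (1 higher, 5 lower). The count was also 6 (1 higher, 5 lower) when aged replicate 3, aged replicate 5, NR-treated replicate 3 or NR-treated replicate 4 was left out. The same aged libraries enter both comparisons, so their values are given side by side and not combined.

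Against young HSC, only Atp13a2 passed in HSC from NR-treated aged mice and it was higher, which is 2.27% of the 44 where 4.47% of all genes passed, 2.56% higher and 1.91% lower. The median log2 fold change was -0.01 over the 44. The libraries did not overlap for Gaa alone, where this held for 4.74% of all genes. Without young replicate 2, 2 genes passed, Atp13a2 and Gaa. In the plot of log2 fold changes, the intervals of most genes cross 0 in the third comparison.

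**Figure D1:**
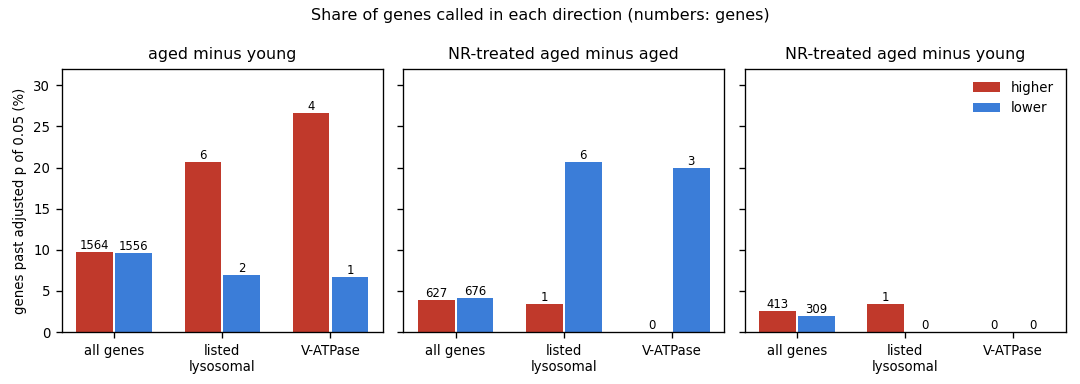
Percentage of genes that passed an adjusted p of 0.05 (vertical axis) in each of 3 comparisons, for all 16154 genes, the 29 listed lysosomal genes and the 15 V-ATPase genes; red bars are genes higher and blue bars genes lower in the first-named group, with the number of genes above each bar. Of the V-ATPase genes, 4 were higher and 1 lower in aged than in young HSC, and 3 were lower with NR than in aged HSC.

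**Figure D2:**
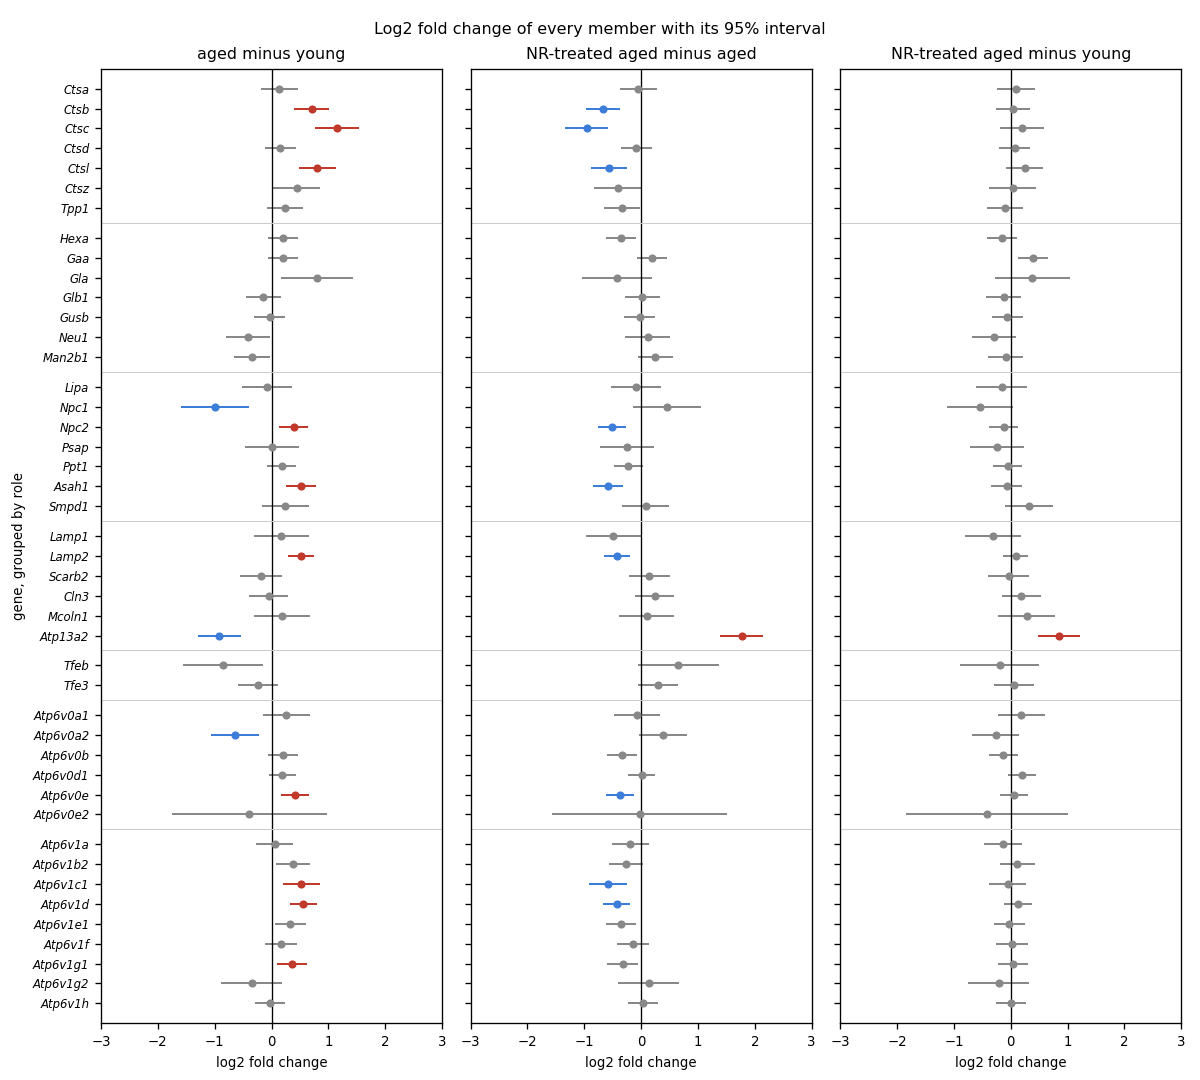
Log2 fold change (horizontal axis) of each of the 44 genes, grouped by role from proteases at the top to V1 subunits at the bottom, in 3 comparisons; points are edgeR estimates, bars are 95% intervals, red and blue mark genes that passed an adjusted p of 0.05 as higher or lower, and grey the rest. Atp13a2 lies farthest to the right in the second panel, at 1.77.

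Among the proteases, 3 of 7 were higher in aged than in young HSC, the cysteine cathepsins Ctsb, Ctsc and Ctsl. With NR, 3 of 7 were lower than in aged HSC, again Ctsb, Ctsc and Ctsl. Each count is 42.9% of the 7, where 19.3% of all genes passed between aged and young HSC and 8.07% with NR. All 7 proteases had a positive log2 fold change between aged and young HSC (median 0.44) and a negative one between NR-treated aged and aged HSC (median -0.41). Their summed level was 902 ± 192 CPM (SD, n = 5) in young, 1343 ± 114 in aged and 965 ± 103 in NR-treated aged HSC. Ctsc (chr7:88278085-88310888, GRCm38) encodes cathepsin C, which activates the serine proteases of granulocytes. It was at 56.8, 70.7, 117, 55.9 and 65.3 CPM in young replicates 1 to 5, at 149.6, 147, 174, 158 and 179 CPM in aged and at 91.8, 96.6, 59.1, 72.3 and 95.8 CPM in NR-treated aged replicates. Every aged library was above every library of the other 2 groups, and young replicate 3 was the highest of the young. Ctsc was 2.23-fold higher in aged than in young HSC (log2 1.15, SE 0.18, adjusted p = 0.000155 by edgeR) and 1.94-fold lower with NR than in aged HSC (log2 -0.96, SE 0.17, adjusted p = 0.00506 by edgeR). Ctsb (chr14:63122462-63145923), which encodes the endopeptidase and carboxypeptidase cathepsin B, was at 155, 203, 262, 159 and 170.2 CPM in young, 284, 307, 375, 289.6 and 292 CPM in aged and 208, 213, 156, 199 and 197 CPM in NR-treated aged replicates. Again the aged libraries lay above all others. Ctsb was 1.63-fold higher in aged than in young HSC (log2 0.71, SE 0.14, adjusted p = 0.00151 by edgeR) and 1.59-fold lower with NR (log2 -0.67, SE 0.14, adjusted p = 0.00866 by edgeR). Against young HSC, Ctsb in NR-treated aged HSC differed by a log2 fold change of 0.04 with a 95% interval of -0.25 to 0.33. Ctsb shares 12.8% of its exonic bases with Fdft1 on the opposite strand, and whether the counting used strand is not given in the sources used here.

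Ctsl (chr13:64359337-64370890), which encodes the endopeptidase cathepsin L and is the protease whose promoter window opens the sequences above, was at 197, 227, 298, 192 and 189.6 CPM in young, 426, 339, 426, 327 and 406 CPM in aged and 248, 336, 196, 261 and 263 CPM in NR-treated aged replicates. The aged and young libraries did not overlap, whereas NR-treated replicate 2 lay within the aged range. Ctsl was 1.75-fold higher in aged than in young HSC (log2 0.81, SE 0.15, adjusted p = 0.000795 by edgeR) and 1.48-fold lower with NR than in aged HSC (log2 -0.56, SE 0.14, adjusted p = 0.0237 by edgeR). The call with NR was lost without aged replicate 3 (log2 -0.52), aged replicate 5 (-0.54), NR-treated replicate 3 (-0.48) or NR-treated replicate 4 (-0.56), and with library totals (-0.42). Predicted genes overlap 26.8% of its exonic bases. The other 4 proteases did not pass in any of the 3 comparisons above. Across the 27 alternative fits Ctsz passed between aged and young HSC in 3 and with NR against aged HSC in 2. Tpp1 passed between aged and young HSC in 2. For both genes these included the fit without young replicate 3. Ctsd, the aspartic cathepsin D, had log2 fold changes of 0.16 between aged and young and -0.09 between NR-treated aged and aged HSC, and the carboxypeptidase Ctsz had 0.44 and -0.41. Ctsa and the tripeptidyl peptidase Tpp1 had 0.14 and 0.24 between aged and young HSC, and -0.05 and -0.34 with NR. A predicted gene on the same strand overlaps 34.4% of the exonic bases of Ctsd. Genes on the opposite strand overlap 17.4% of those of Ctsa.

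The summed level of the macrophage and monocyte markers was lower with NR than in aged HSC, as Ctsb, Ctsc and Ctsl were. Of the 12 in the list 11 were counted, and their summed level was 421, 512, 3198, 984 and 393 CPM in young, 882, 938, 1995, 2283 and 1904 CPM in aged and 395, 374, 311, 320.3 and 548 CPM in NR-treated aged replicates. Lyz2 and Ly6c2 held most of it. With NR, 5 of the 11 were lower than in aged HSC and none was higher, with a median log2 fold change of -1.70. This was 45.5% of the 11, where 8.07% of all genes passed. The other 6, C1qa, C1qb, C1qc, Cd14, Mrc1 and Vcam1, did not pass, and Vcam1 had a log2 fold change of 0.21. Between aged and young HSC 1 was higher, Cd14, and 1 lower, Vcam1, with a median of 0.06 (18.2% of the 11, where 19.3% of all genes passed). Among the 5 markers that were lower with NR, Adgre1 averaged 0.702 CPM in young, 1.97 in aged and 0.119 in NR-treated aged HSC. It had 0 counts in young replicates 1 and 2 and in NR-treated replicates 1, 3, 4 and 5. In aged replicate 2 it had 2 counts, under the limit of 3.93 CPM there. Csf1r averaged 10.5, 10.5 and 1.97 CPM in the 3 groups, with 33.7 CPM in young replicate 3. Mpeg1 averaged 27.6, 23.1 and 2.00 CPM, with 110.0 CPM in young replicate 3 and 50.5 CPM in aged replicate 4. The aged and NR-treated libraries did not overlap in the summed marker level, and young replicate 3 had a higher sum than any aged library. The part of cells carrying these markers in the cathepsin levels was not tested in any comparison. The 10 neutrophil markers summed to 224 to 5625 CPM in young, 1444 to 2208 in aged and 267 to 475 in NR-treated aged HSC, with 8 lower with NR. The 7 erythroid markers summed to 145 to 2656 CPM in young, 3259 to 6517 in aged and 72.3 to 565 in NR-treated aged HSC. Of these 7, 4 were higher in aged than in young HSC (median log2 fold change 1.92) and all 7 were lower with NR than in aged HSC (median -4.92). The B and plasma cell markers summed to 105 to 801 CPM in young, 603 to 4381 in aged and 87.1 to 166 in NR-treated aged HSC. Of the 7 counted, 3 were higher in aged than in young HSC and 5 were lower with NR. Against young HSC, 6 of the 10 neutrophil markers were lower with NR and 1 was higher (median log2 fold change -4.39). Of the 7 erythroid markers 5 were lower (median -3.16), as were 3 of the 7 B and plasma cell markers (-2.23). Of the 11 macrophage and monocyte markers 1 was lower (-1.68), where 4.47% of all genes passed. The part of cells carrying neutrophil, erythroid, B or plasma cell markers in the lysosomal levels was not tested either. The platelet markers summed to 596 to 727, 749 to 1133 and 559.9 to 1494 CPM, and the T and NK cell markers to 95.8 to 163, 80.3 to 103 and 42.3 to 151 CPM.

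**Figure D3:**
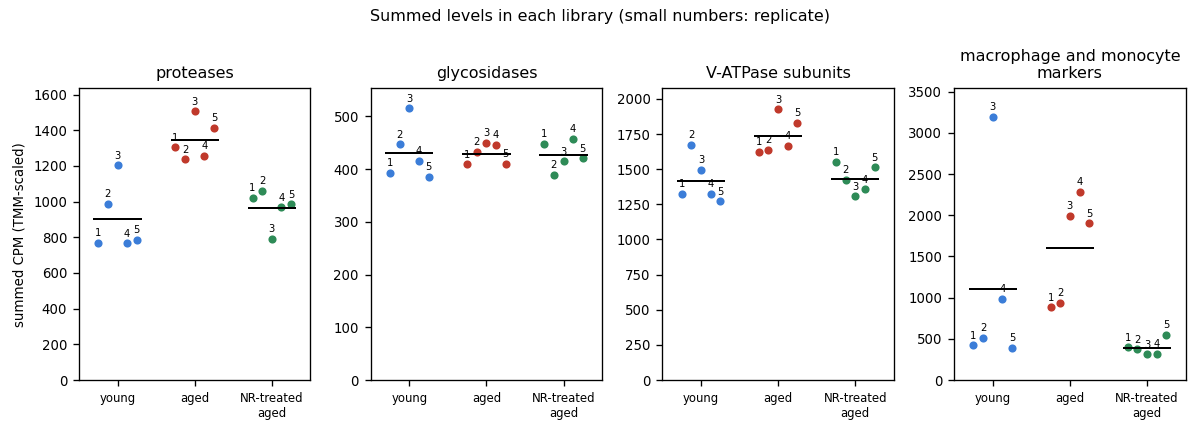
Summed TMM-scaled CPM (vertical axes, from 0) of the 7 proteases, the 7 glycosidases, the 15 V-ATPase subunits and the 11 macrophage and monocyte markers in each library; points are libraries with their replicate number, and horizontal lines are group means (n = 5). The aged libraries lie above all others for the proteases, whereas the glycosidase means lie between 426 and 431 CPM in all 3 groups.

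None of the 7 glycosidases, which trim sugars from glycans and glycolipids, passed in any comparison by edgeR. At an unadjusted p under 0.05, 3 differed between aged and young HSC, 1 between NR-treated aged and aged and 1 between NR-treated aged and young HSC, where 5357, 4048 and 2903 of all 16154 genes did. Across the 27 alternative fits Hexa passed with NR against aged HSC in 5 and Gaa with NR against young HSC in 4, and between aged and young HSC Man2b1 passed in 3, Gla in 1 and Neu1 in 1. Their summed level was 431 ± 52.9 CPM (SD, n = 5) in young, 430 ± 19.3 in aged and 426 ± 27.1 in NR-treated aged HSC. Of the 7, 3 had a positive and 4 a negative log2 fold change between aged and young HSC, with a median of -0.03. Gaa (chr11:119267887-119285454), the acid alpha-glucosidase that degrades glycogen in lysosomes, was at 70.5, 85.2, 69.2, 69.3 and 73.1 CPM in young, 81.9, 97.3, 99.4, 79.1 and 65.7 CPM in aged and 103, 98.7, 85.9, 101 and 90.7 CPM in NR-treated aged replicates. All NR-treated libraries were above all young libraries, and the aged libraries overlapped both. The log2 fold change was 0.38 between NR-treated aged and young HSC (SE 0.12, adjusted p = 0.0694 by edgeR) and 0.19 in each of the other 2 comparisons. Hexa, the alpha subunit of beta-hexosaminidase, was lower with NR than in aged HSC in every library, with a log2 fold change of -0.36 (adjusted p = 0.0669 by edgeR). Gla, the alpha-galactosidase, was the lowest counted glycosidase, with group means of 4.52, 8.13 and 5.93 CPM, and its log2 fold change of 0.80 between aged and young HSC did not pass (adjusted p = 0.064 by edgeR). Neu1 and Man2b1, a sialidase and an alpha-mannosidase, had -0.41 and -0.34 between aged and young HSC, and Glb1 and Gusb, beta-galactosidase and beta-glucuronidase, had -0.15 and -0.03.

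The genes for lipid breakdown and sterol transfer split between aged and young HSC: 2 of 7 were higher, 1 was lower and 4 did not pass. With NR, 2 of 7 were lower than in aged HSC and none was higher. Those that passed were 42.9% and 28.6% of the 7, where 19.3% and 8.07% of all genes passed. Asah1 (chr8:41340197-41374773), the acid ceramidase, was at 68.1, 81.2, 94.3, 81.6 and 71.5 CPM in young, 98.3, 117, 130.0, 105 and 117 CPM in aged and 65.0, 76.9, 71.9, 72.3 and 89.6 CPM in NR-treated aged replicates. The aged libraries lay above those of both other groups. Asah1 was 1.43-fold higher in aged than in young HSC (log2 0.52, SE 0.12, adjusted p = 0.00491 by edgeR) and 1.51-fold lower with NR (log2 -0.59, SE 0.12, adjusted p = 0.00776 by edgeR). Without young replicates 1 and 5 its log2 fold change between aged and young HSC was 0.40 and did not pass.

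Npc1 and Npc2 act in turn to move cholesterol out of the lysosome, Npc2 in the lumen and Npc1 in the membrane, and their levels differed in opposite directions between aged and young HSC. Npc2 (chr12:84754562-84773152) was at 209, 218, 274, 190.5 and 182 CPM in young, 248, 252, 296, 305 and 297 CPM in aged and 207, 195, 193, 183 and 204 CPM in NR-treated aged replicates. Young replicate 3 lay within the aged range, whereas every NR-treated library was below every aged library. Npc2 was 1.31-fold higher in aged than in young HSC (log2 0.39, SE 0.11, adjusted p = 0.02 by edgeR) and 1.43-fold lower with NR than in aged HSC (log2 -0.51, SE 0.11, adjusted p = 0.0112 by edgeR). The first of these calls was lost without young replicate 4 (log2 0.35), young replicate 5 (0.33) or aged replicate 3 (0.36), without young replicates 1 and 5 together (0.30), with library totals (0.26) and after thinning all libraries to the smallest total (0.37). Npc1 was at 9.12, 10.0, 21.6, 16.3 and 9.71 CPM in young, 6.07, 10.4, 5.07, 7.29 and 6.83 CPM in aged and 9.60, 7.45, 12.4, 9.86 and 6.54 CPM in NR-treated aged replicates. Young replicates 3 and 4 were high, and aged replicate 2, the shallowest library, lay within the young range. Npc1 was 1.99-fold lower in aged than in young HSC (log2 -0.99, SE 0.28, adjusted p = 0.0169 by edgeR) and did not pass between NR-treated aged and aged HSC (log2 0.46, SE 0.28, adjusted p = 0.317 by edgeR). The call was lost without young replicate 3 (log2 -0.76) or aged replicate 3 (-0.88) and after thinning (-0.79), and other genes overlap 5.31% of its exonic bases. The acid lipase Lipa, the saposin precursor Psap, the thioesterase Ppt1 and the acid sphingomyelinase Smpd1 had log2 fold changes between -0.07 and 0.24 in aged against young HSC and between -0.25 and 0.08 with NR, none of which passed by edgeR.

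Of the 6 membrane proteins, Lamp2 was higher in aged than in young HSC and lower with NR, and Atp13a2 differed the other way in both comparisons. These 2 were 33.3% of the 6 in each comparison, where 19.3% and 8.07% of all genes passed. Lamp2 (chrX:38401357-38456454) encodes a major glycoprotein of the lysosomal membrane that serves in autophagy. It was at 154, 168, 179, 174 and 135 CPM in young, 226, 211, 242, 219 and 254 CPM in aged and 151, 179.8, 170.3, 178 and 179.7 CPM in NR-treated aged replicates. The aged libraries did not overlap with either other group, and the other 2 groups overlapped. Lamp2 was 1.43-fold higher in aged than in young HSC (log2 0.51, SE 0.10, adjusted p = 0.00151 by edgeR) and 1.35-fold lower with NR (log2 -0.43, SE 0.10, adjusted p = 0.0153 by edgeR). The call with NR was lost with library totals (log2 -0.29, adjusted p = 0.0597 by edgeR) and after thinning (log2 -0.42, adjusted p = 0.07 by edgeR). Between NR-treated aged and young HSC its log2 fold change was 0.08, with a 95% interval of -0.13 to 0.29. Lamp1, its relative in the same membrane, had 0.17 between aged and young HSC and -0.49 with NR, and did not pass.

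Atp13a2 (chr4:140986873-141007330) encodes a P5-type ATPase of late endosomes and lysosomes that exports polyamines from the lumen. It was at 68.1, 65.9, 81.7, 72.2 and 58.5 CPM in young, 39.6, 33.7, 35.8, 37.0 and 35.3 CPM in aged and 171, 138, 70.0, 131 and 109.7 CPM in NR-treated aged replicates. The aged libraries lay close together and below all others, and 4 of the 5 NR-treated libraries were above every young library, with NR-treated replicate 3 inside the young range. Atp13a2 was 1.89-fold lower in aged than in young HSC (log2 -0.92, SE 0.17, adjusted p = 0.00115 by edgeR). It was 3.40-fold higher with NR than in aged HSC (log2 1.77, SE 0.17, 95% interval 1.41 to 2.13, adjusted p = 3.41e-05 by edgeR). It was also 1.80-fold higher with NR than in young HSC (log2 0.85, SE 0.17, adjusted p = 0.00418 by edgeR). No other annotated gene shares its exonic bases. Of the 44 genes it had the largest absolute log2 fold change with NR and was the only one higher. The lipid-associated protein Cln3, the glucocerebrosidase carrier Scarb2 and the calcium channel Mcoln1 did not pass in any comparison, with log2 fold changes of 0.24, 0.14 and 0.10 with NR against aged HSC.

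**Figure D4:**
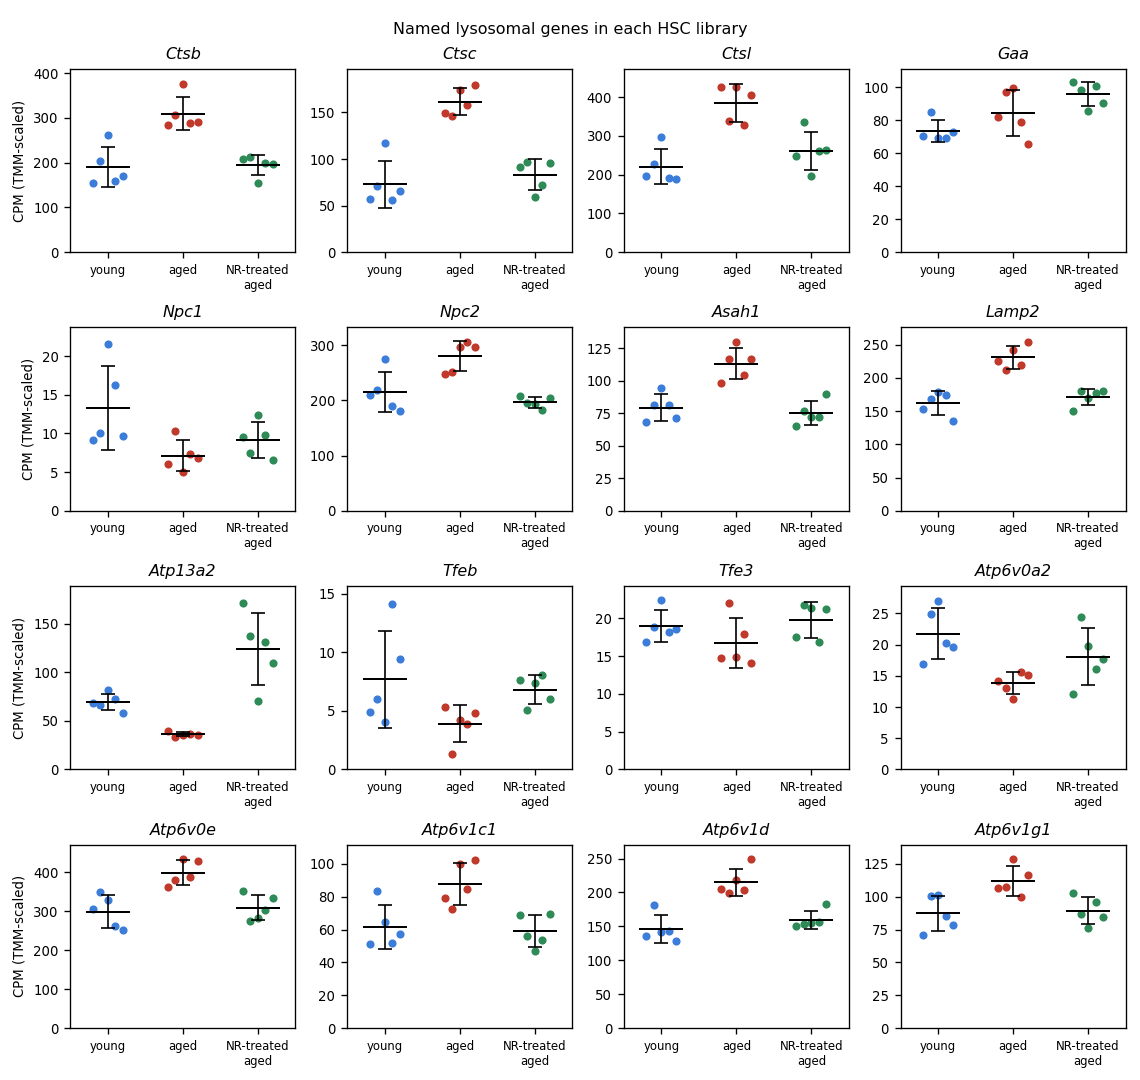
TMM-scaled CPM (vertical axes, from 0) of the 16 genes given by library, in young (blue), aged (red) and NR-treated aged (green) HSC; points are libraries in replicate order, long bars are means and whiskers are SD (n = 5). For Ctsb, Ctsc, Asah1, Lamp2, Atp6v0e and Atp6v1d the aged libraries lie above all others, and for Atp13a2 they lie below all others.

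The V-ATPase genes summed to 1417 ± 167 CPM (SD, n = 5) in young, 1736 ± 134 in aged and 1430 ± 103 in NR-treated aged HSC. Between aged and young HSC 4 of the 15 were higher and 1 lower, with a median log2 fold change of 0.20. With NR against aged HSC 3 were lower and none was higher, with a median of -0.20. Those that passed were 33.3% and 20% of the 15, where 19.3% and 8.07% of all genes passed. Between NR-treated aged and young HSC none passed by edgeR, none had an unadjusted p under 0.05, and none passed in any of the 27 alternative fits, DESeq2 and limma included. In the V0 sector, Atp6v0e (chr17:26663231-26699647), a small subunit of the membrane domain, was at 306, 348, 328, 261 and 251 CPM in young, 361, 379, 435, 387 and 428 CPM in aged and 352, 275, 283, 302 and 333 CPM in NR-treated aged replicates. The aged libraries were above all others, by a small margin over young replicate 2 and NR-treated replicate 1. Atp6v0e was 1.33-fold higher in aged than in young HSC (log2 0.42, SE 0.11, adjusted p = 0.0128 by edgeR) and 1.29-fold lower with NR (log2 -0.37, SE 0.11, adjusted p = 0.0453 by edgeR). The first call was lost without young replicates 1 and 5 (log2 0.35, adjusted p = 0.0872 by edgeR). The second call was near the threshold and was kept in 12 of 27 alternative fits, with log2 fold changes from -0.41 to -0.23, and it was lost without young replicate 1, without any of aged replicates 2 to 5 or without any of NR-treated replicates 2 to 5.

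Atp6v0a2 (chr5:124628576-124724455), a form of the large a subunit through which protons pass, was at 16.8, 24.9, 26.9, 20.3 and 19.7 CPM in young, 14.2, 13.0, 11.2, 15.6 and 15.1 CPM in aged and 12.1, 24.4, 19.8, 16.1 and 17.7 CPM in NR-treated aged replicates. All aged libraries were below all young libraries, and the NR-treated libraries spanned both ranges. It was 1.56-fold lower in aged than in young HSC (log2 -0.64, SE 0.19, adjusted p = 0.0248 by edgeR) and did not pass with NR (log2 0.38, SE 0.19, adjusted p = 0.227 by edgeR). The call was lost without young replicate 3 (log2 -0.55) or aged replicate 3 (-0.56) and after thinning (-0.68), and a gene on the opposite strand overlaps 9.86% of its exonic bases. Atp6v0a1, another form of it, had a log2 fold change of 0.26 between aged and young HSC and -0.08 with NR and did not pass. Atp6v0b and Atp6v0d1, whose windows are shown above, had 0.20 and 0.19 between aged and young HSC and -0.33 and 0.01 with NR. Of the 27 alternative fits, Atp6v0b passed in 1 between aged and young HSC and in 3 with NR against aged HSC. Atp6v0e2 was at or under 3 counts in 7 of the 15 libraries, so a difference was not detectable at this depth.

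In the V1 sector 3 of 9 genes were higher in aged than in young HSC and 2 were lower with NR. These are 33.3% and 22.2% of the 9, where 19.3% and 8.07% of all genes passed. Atp6v1d (chr12:78840725-78861638), the D subunit of the rotating central stalk, was at 136, 181, 141, 143 and 128 CPM in young, 205, 199, 218, 203 and 249 CPM in aged and 150.3, 153, 155, 157 and 182 CPM in NR-treated aged replicates. The aged libraries lay above those of the other groups. Atp6v1d was 1.48-fold higher in aged than in young HSC (log2 0.56, SE 0.11, adjusted p = 0.00133 by edgeR) and 1.35-fold lower with NR (log2 -0.43, SE 0.11, adjusted p = 0.0203 by edgeR). The call with NR was lost without aged replicate 3 (log2 -0.42), aged replicate 5 (-0.37), NR-treated replicate 3 (-0.42) or NR-treated replicate 4 (-0.43), and with library totals (-0.29). Atp6v1c1 (chr15:38661933-38692446), the C subunit that joins the V1 and V0 sectors, was at 51.2, 83.6, 64.7, 51.9 and 57.2 CPM in young, 79.2, 72.7, 99.9, 84.4 and 103 CPM in aged and 68.6, 56.0, 47.1, 53.7 and 69.7 CPM in NR-treated aged replicates. Young replicate 2 lay within the aged range, and all NR-treated libraries were below all aged libraries. Atp6v1c1 was 1.44-fold higher in aged than in young HSC (log2 0.53, SE 0.15, adjusted p = 0.0192 by edgeR) and lower with NR (log2 -0.58, SE 0.15, adjusted p = 0.0233 by edgeR). The first call was lost without young replicate 1, young replicate 4, aged replicate 3 or aged replicate 5, with log2 fold changes of 0.47, 0.47, 0.47 and 0.46, and without young replicates 1 and 5 together (0.41). The second was lost without aged replicate 3 (-0.52), aged replicate 5 (-0.52), NR-treated replicate 3 (-0.51) or NR-treated replicate 4 (-0.55), and after thinning (-0.50).

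Atp6v1g1 (chr4:63544772-63550750), a G subunit of the peripheral stalk, was at 71.2, 100.5, 101, 85.3 and 78.8 CPM in young, 106, 108, 129, 100.1 and 116 CPM in aged and 103, 87.0, 76.2, 96.1 and 84.4 CPM in NR-treated aged replicates. Young replicates 2 and 3 reached the lowest aged library. It was 1.29-fold higher in aged than in young HSC (log2 0.36, SE 0.12, adjusted p = 0.0388 by edgeR) and did not pass with NR (log2 -0.33, SE 0.12, adjusted p = 0.0934 by edgeR). The call was kept in 16 of 27 alternative fits, with log2 fold changes from 0.23 to 0.43, and was lost without young replicate 1, 4 or 5 or aged replicate 3 or 5 and without young replicates 1 and 5 together (log2 0.23, adjusted p = 0.269 by edgeR). The catalytic subunit Atp6v1a and its partner Atp6v1b2, which together hydrolyse ATP, had log2 fold changes of 0.06 and 0.38 between aged and young HSC (adjusted p = 0.828 and 0.0572 by edgeR) and -0.20 and -0.26 with NR. Atp6v1e1 and Atp6v1f had 0.33 and 0.16 between aged and young HSC and -0.35 and -0.15 with NR. Atp6v1h had -0.03 and 0.03. Atp6v1g2, the less counted G subunit, had -0.35 and 0.13. Across the 27 alternative fits Atp6v1e1 passed between aged and young HSC in 5 and Atp6v1b2 in 4. With NR against aged HSC Atp6v1e1 passed in 1.

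Neither Tfeb nor Tfe3 passed in any comparison. Tfeb (chr17:47737030-47792419) was at 4.91, 6.03, 4.04, 14.1 and 9.44 CPM in young, 5.35, 1.30, 4.23, 3.91 and 4.82 CPM in aged and 7.63, 5.07, 7.39, 8.04 and 5.99 CPM in NR-treated aged replicates. Young replicates 4 and 5 were high, and the lowest value, in the shallowest library, was 1 count. Its log2 fold change was -0.85 between aged and young HSC (SE 0.33, adjusted p = 0.0736 by edgeR) and 0.66 with NR (SE 0.33, adjusted p = 0.221 by edgeR). The first of these passed without young replicate 3, at -0.999, and with library totals, at -0.99. Tfe3 (chrX:7762560-7775202) was at 16.8, 18.9, 22.5, 18.1 and 18.6 CPM in young, 14.7, 22.1, 14.9, 18.0 and 14.1 CPM in aged and 17.5, 21.8, 21.4, 16.8 and 21.2 CPM in NR-treated aged replicates. Its groups overlapped, with log2 fold changes of -0.23 between aged and young HSC and 0.29 with NR (SE 0.16 in both). The RNA level of a transcription factor does not give its location in the cell, which was not measured here. Of the 6 genes higher in aged than in young HSC that had a promoter in the table, 2 held CACGTG, Ctsl and Atp6v0e, and of the 29 that did not pass 11 held it. With NR, 2 of the 6 lower genes with a promoter held it, again Ctsl and Atp6v0e, and 11 of the 29 that did not pass. Atp13a2 did not hold these letters in its window.

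Other lysosomal genes from 5 lists were examined in the same fit, where 19.3% of all genes passed between aged and young, 8.07% between NR-treated aged and aged and 4.47% between NR-treated aged and young HSC. Of the 10 V-ATPase partners, 1 (10%) was lower in aged than in young HSC and none passed in the other comparisons (edgeR; 3 had an unadjusted p under 0.05 with NR against aged HSC, and 1 with NR against young HSC, where 4048 and 2903 of all 16154 genes did). The one that passed was Dmxl1, which helps to assemble the pump, with a log2 fold change of -0.74 (SE 0.19, adjusted p = 0.0114 by edgeR). Tcirg1, the a subunit of osteoclasts, was at 33.8 ± 8.43 CPM (SD, n = 5) in young, 26.9 ± 8.62 in aged and 23.9 ± 1.83 in NR-treated aged HSC. The accessory subunits did not pass either: Atp6ap1 had log2 fold changes of 0.00 between aged and young HSC (95% interval -0.28 to 0.28) and Atp6ap2 had 0.23, with -0.39 with NR against aged HSC. Of the 30 further hydrolases counted, 3 were higher and 1 lower in aged than in young HSC, 3 were lower with NR than in aged HSC, and 1 was higher and 1 lower with NR than in young HSC. These were 13.3%, 10% and 6.67% of the 30. Log2 fold changes over the 30 ranged from -2.14 to 0.61 with NR against aged HSC and from -1.61 to 0.63 with NR against young HSC. The genes named next are therefore not those with the largest changes with NR against aged HSC. The cysteine cathepsin Ctso was at 51.4 ± 4.22 CPM in young, 81.2 ± 5.09 in aged and 65.5 ± 4.29 in NR-treated aged HSC, with no overlap between the 3 groups, and its log2 fold changes were 0.66 between aged and young HSC (adjusted p = 0.000147 by edgeR) and -0.31 with NR (adjusted p = 0.0555 by edgeR). The cathepsin Ctsf had 0.73 and -0.22. Dnase2a, the acid DNase, was higher with NR than in young HSC, by 0.63 (adjusted p = 0.00501 by edgeR).

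Of the 19 further membrane proteins, 4 were higher and 1 lower in aged than in young HSC, and 2 were lower with NR than in aged HSC, which are 26.3% and 10.5% of the 19. Laptm4a was at 328 ± 33.6 CPM (SD, n = 5) in young, 527 ± 67.1 in aged and 362 ± 16.0 in NR-treated aged HSC. Its libraries in aged HSC were above all others, with log2 fold changes of 0.68 between aged and young HSC (adjusted p = 0.000133 by edgeR) and -0.54 with NR (adjusted p = 0.00591 by edgeR). The transporter-like Mfsd1 had 0.71 and -0.41, and both passed (adjusted p = 0.000142 and 0.0252 by edgeR). The tetraspanin Cd63 had 0.72 (adjusted p = 0.000465 by edgeR) and -0.38 (adjusted p = 0.0631 by edgeR). Of the 12 genes for sorting of hydrolases to lysosomes, 2 were higher and 2 lower in aged than in young HSC and 1 was lower with NR, which are 33.3% and 8.33% of the 12. M6pr, a mannose 6-phosphate receptor that carries newly made hydrolases to endosomes, had 0.50 and -0.40 (adjusted p = 0.00557 and 0.0381 by edgeR). Gnptg, a subunit of the enzyme that makes the mannose 6-phosphate tag, had 0.71 between aged and young HSC, and the adaptor Gga2 had -1.15. Of the 18 genes that hold TFEB and TFE3 at the lysosome or are related to them, Rptor was lower in aged than in young HSC, by a log2 fold change of -0.70 (adjusted p = 0.00347 by edgeR), and Lamtor1 was lower with NR than in aged HSC, by -0.54 (adjusted p = 0.0257 by edgeR). Rptor binds mTOR to its targets, and Lamtor1 anchors the Ragulator complex to the lysosome. Each was 5.56% of the 18, and the other 16 did not pass in any comparison.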

How the data were processed

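Reads were aligned by the authors to GRCm38 with STAR 2.4.2a, collapsed by UMI and assigned to GENCODE exons with featureCounts. They deposited unnormalised read counts per gene after a filter on low genes, stated as 5 reads and 2 CPM exceeded in 2 or more samples. In the deposited counts all 16154 genes exceeded the CPM limit and 16122 the read limit. Strand use is not given in the sources used here. Positions are from GENCODE M21, a later release than the authors' vM15.

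Counts of all 15 libraries were fitted together in R 4.3.3 with edgeR 4.0.16 (TMM, quasi-likelihood test, group as the only factor, Benjamini-Hochberg adjustment over 16154 genes, threshold 0.05). The authors used likelihood ratio tests, run here as an alternative beside DESeq2 1.42.0, limma 3.58.1 and others. In a test on simulated data for aged against young libraries, 104 of 200 genes changed 2-fold among 16154 were recovered, with 6.31% false calls. This was 52%, and 91.8% of the 97 at 20 CPM or more. In the data 3120 genes passed in that comparison, many more than were changed in the simulation, so these shares need not hold for the data. Replicates of a group are separate mice, and no libraries were copies of each other (smallest chi-square per degree of freedom 3.00).

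The genes and lists were chosen with earlier results of these data known. Values by library are given for Tfeb, Tfe3 and, in each role, up to 4 genes that passed with the smallest p, or else the gene with the smallest p. Of the other lists, Tcirg1, Atp6ap1, Atp6ap2 and at most 3 genes each are named. Promoters are from RefSeq (GRCm38.p6).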

Additional observations from a re-analysis of the deposited data

Results flagged for a closer look

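Each of the 16 genes given by library was examined in each of the 3 groups for a library far from the other 4, that is with a gap to its nearest neighbour of more than 0.71 of the group's range. Gaps and ranges were taken on CPM and not on a log scale. This was met in 6 of 48 groups, where chance gives about 1 in 20 for independent groups. The 48 groups share the same 15 libraries, so they are not independent and the rates were not compared. Ctsb was high in aged replicate 3, at 375 CPM, and low in NR-treated aged replicate 3, at 156 CPM. Ctsc was high in young replicate 3, at 117 CPM, the library with the highest macrophage and neutrophil marker sums. Gaa, at 85.2 CPM, and Atp6v1d, at 181 CPM, were high in young replicate 2. Atp6v1d was also high in NR-treated aged replicate 5, at 182 CPM. Ctsb and Ctsc passed in aged against young and in NR-treated aged against aged HSC with each library left out in turn, and Atp6v1d did so in aged against young HSC.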

How the results depend on the processing

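Between aged and young HSC, where 13 of the 44 genes passed, the count was 8 after thinning all libraries to 764119 counts, 7 at an adjusted p under 0.01, 1 with a further limit of 1 on the absolute log2 fold change, and 8 to 15 with 1 library left out. Between NR-treated aged and aged HSC, where 10 passed, it was 6 with library totals, 4 at an adjusted p under 0.01, 1 with that limit, and 6 to 12 with 1 library left out. Between NR-treated aged and young HSC, where 1 passed, it was 2 with DESeq2, 2 when every library had to hold 10 counts or more, 2 without predicted genes, 0 with that limit, and 1 to 2 with 1 library left out. For all genes, where 3120, 1303 and 722 passed, the counts were 1597, 466 and 415 after thinning, 1317, 208 and 310 at an adjusted p under 0.01 and 1184, 584 and 413 with the limit on the fold change. The first was also 1953 without aged replicate 3 and 1862 without young replicates 1 and 5. The second was 422 without aged replicate 3, 607 without aged replicate 5, and 538 and 534 without NR-treated replicates 3 and 4. With 10 counts in every library, the second was 783 of only 8444 genes tested. The third was 452 without NR-treated replicate 4. Counts over the 5 other lists ranged from 0 to at most 6 per list. Across the 27 alternative fits, which kept the threshold of 0.05, no named gene that passed changed sign. Calls for Ctsb, Ctsc, Ctsl, Lamp2 and Atp6v1d in aged against young HSC, for Ctsb, Ctsc, Npc2, Asah1 and Atp13a2 in NR-treated aged against aged HSC, and for Atp13a2 in NR-treated aged against young HSC were kept in all 27. The call for Atp13a2 in aged against young HSC was lost only after thinning (adjusted p = 0.0532 by edgeR). Replicate numbers were not treated as pairs: deviations of same-numbered libraries correlated by 0.00666 on average (-0.252 to 0.137 over 15 pairs), and 2 of 15 libraries correlated best with their own number. With the number as a block the counts were 12, 9 and 1, without Atp6v1g1 and Atp6v0e respectively. The depth of aged replicate 2 limits values under 3.93 CPM there.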
